A study of Mus musculus with 2 samples.

Results

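The integrated stress response and Gadd45 genes described here are 10 genes of the 32285 in the deposited count table: the transcription factors Atf4, Atf3 and Ddit3, the response genes Chac1, Trib3 and Asns, the inhibitors of mTORC1 signalling Ddit4 and Ddit4l, and the growth arrest genes Gadd45a and Gadd45g. They were chosen by their levels across the myosin types of muscle nuclei, non-muscle nuclei and libraries of these same data, so every level and difference below is a description without a test. All 10 are in the table, and 8 held 20 or more unique molecular identifiers (UMIs, each standing for a captured RNA molecule) in the nuclei of muscle fibres over both libraries, the number set as the least for a ratio. The other two were Trib3, with 2 UMIs in plantaris and 1 in gastrocnemius myonuclei, and Asns, with 3 UMIs in plantaris and 2 in gastrocnemius myonuclei.

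The integrated stress response starts when stress-activated kinases phosphorylate the translation initiation factor eIF2, which lowers protein synthesis in general but favours translation of ATF4. ATF4 with its partners then turns on genes for amino acid supply, for redox balance and for feedback on the response. The GADD45 proteins are small stress-induced partners of kinases and cell cycle proteins, and Gadd45a and Atf4 are known in muscle for their part in fibre atrophy.

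Plantaris and gastrocnemius, calf muscles of wild-type C57BL/6 mice aged 12 weeks, were each profiled by single-nucleus RNA sequencing in 1 library. Both groups share strain, age, and the sorting of nuclei stained with propidium iodide, and they differ by their labels in the muscle. How many mice each library holds is not given in the sources used here. Plantaris had 9149 analysed nuclei and 29248275 UMIs over all its barcodes, with a median of 2714 UMIs per nucleus, against 7372 nuclei, 19048595 UMIs and a median of 2260 in gastrocnemius. Myonuclei numbered 5804 in plantaris and 5108 in gastrocnemius, and the sarcomere gene Ttn had 42486 CPM in myonuclei and 13141 CPM in non-muscle nuclei of plantaris, and 50075 CPM in myonuclei and 11556 CPM in non-muscle nuclei of gastrocnemius. The libraries share 17 barcode sequences, and doublets beyond 1 marked in plantaris and 2 in gastrocnemius remain.

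Myonuclei were typed by their most abundant adult myosin heavy chain transcript where they held 3 or more such UMIs. Nuclei led by Myh2, the myosin of type 2A fibres, numbered 569 in plantaris and 174 in gastrocnemius. Myh1 nuclei, of type 2X fibres, numbered 764 in plantaris and 131 in gastrocnemius, and Myh4 nuclei, of type 2B fibres, 4184 in plantaris and 4575 in gastrocnemius. Named non-muscle nuclei (mesenchymal progenitors, macrophages, muscle stem cells, pericytes, tenocytes, endothelium and smooth muscle) numbered 2564 in plantaris and 1710 in gastrocnemius. Levels are UMIs per 1000000 UMIs of the group (CPM, counts scaled to a common total), and intervals in parentheses are at 95% and cover counting error only. With 1 library per muscle there is no replicate check, and muscle, animals and library cannot be told apart. A pair of groups is called apart where the log2 ratio of CPM is 1 or more, or -1 or less, with 20 or more UMIs over both. A difference in CPM of a group does not tell fewer transcribing nuclei from less RNA per nucleus. Counts per nucleus are given for some members, and where they are low they do not tell these apart either.

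The promoters of 4 of the 10 genes hold the letters TGATGNAA on either strand in the 250 bases before the RefSeq start, the core of the composite site that C/EBP-ATF pairs such as ATF4 with C/EBP proteins are known to bind. The same letters are in 1133 of 32817 promoters of the same length, which is 3.45%. The members with a match are Chac1, Gadd45g, Atf3 and Asns. Their windows are shown because Chac1 and Gadd45g, which carry the same 8 letters as Atf3, lay on opposite sides between the muscles. Each is 80 bases, read 5′ to 3′ on the gene's strand from RefSeq sequence of build GRCm38.p6, with the match in capitals.
Chac1, chr2:119351013-119351092, plus strand: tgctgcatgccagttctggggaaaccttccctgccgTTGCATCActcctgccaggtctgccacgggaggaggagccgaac
Gadd45g, chr13:51846538-51846617, plus strand: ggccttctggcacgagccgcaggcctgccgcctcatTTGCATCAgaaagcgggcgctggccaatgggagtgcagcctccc
Atf3, chr1:191183400-191183479, minus strand: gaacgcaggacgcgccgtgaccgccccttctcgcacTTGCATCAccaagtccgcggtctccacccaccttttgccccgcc
Asns, chr6:7693210-7693289, minus strand: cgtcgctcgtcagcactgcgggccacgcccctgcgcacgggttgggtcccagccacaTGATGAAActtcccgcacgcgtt
The match ended 186 bases before the start in Chac1, 94 in Gadd45g, 103 in Atf3 and 16 in Asns, counting the base just before the start as -1. Among other motifs searched on both strands, the cAMP response element TGACGTCA was in no member and in 1.55% of promoters, the AP-1 site TGANTCA in Ddit3 alone of the members and in 6.75%, and CCAAT in 6 members and 33.8%. No match of these motifs overlapped another in a member. Ddit4 and Ddit4l, both far apart between the muscles, hold no TGATGNAA in this window.

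In Myh4 nuclei, plantaris held higher levels of Ddit4, Ddit4l and Gadd45g than gastrocnemius, and lower levels of Chac1 and Atf3. The Atf3 difference rests on 1 gastrocnemius nucleus that held 98 of the 116 UMIs there: its log2 ratio was 0.060 without the leading nucleus of each group and 2.60 among nuclei with 10 or more Myh UMIs. Of the 8 members with enough UMIs, 3 were apart on the higher side and 2 on the lower, where over all 12651 genes 8.86% were higher and 2.17% lower. Since the members were chosen on this contrast, nothing is read from that count. Their median log2 ratio was 0.78, against 0.20 over all genes.

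Atf4, which encodes the factor at the centre of the response, had 312 UMIs or 19.7 CPM (17.6 to 22.0) in plantaris Myh4 nuclei and 216 UMIs or 15.3 CPM (13.3 to 17.5) in gastrocnemius Myh4 nuclei. Its log2 ratio of 0.37 (0.11 to 0.63) lay close to that of the typical gene. Control of Atf4 acts largely on its translation, which RNA counts do not measure. Ddit3, also called CHOP, encodes a factor of prolonged stress. It had 175 UMIs or 11.1 CPM (9.48 to 12.8) in plantaris and 100 UMIs or 7.07 CPM (5.75 to 8.60) in gastrocnemius, a log2 ratio of 0.64 (0.28 to 1.01). The table lists a second Ddit3 entry that lies within the gene at chr10:127290829-127293753, and it has 0 UMIs in both libraries. How reads shared by both entries were counted is not given in the sources used here. Atf3, a factor induced by many stresses, had 53 UMIs or 3.35 CPM in plantaris and 116 UMIs or 8.20 CPM in gastrocnemius. Its log2 ratio was -1.29 (-1.79 to -0.81), and its sign turned without the leading nucleus of each group, as given above.

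Chac1 (chr2:119351229-119354381), which encodes an enzyme that degrades glutathione and is a known ATF4 target, was the member lower in plantaris with the most UMIs behind it. It had 110 UMIs or 6.95 CPM (5.71 to 8.38) in plantaris Myh4 nuclei and 312 UMIs or 22.1 CPM (19.7 to 24.6) in gastrocnemius Myh4 nuclei, a log2 ratio of -1.67 (-1.99 to -1.35). At most 2 UMIs lay in any nucleus of either library, and such sparse counts do not tell fewer nuclei with the transcript from less of it per nucleus. Nuclei with a UMI were 104 of 4184 nuclei (2.49%) in plantaris and 295 of 4575 (6.45%) in gastrocnemius. With each nucleus thinned to 1000 UMIs the shares were 0.628% (0.411 to 0.919) in plantaris and 2.39% (1.96 to 2.88) in gastrocnemius. Trib3, a pseudokinase that inhibits ATF4 and is among its targets, had 2 UMIs in plantaris and 1 in gastrocnemius Myh4 nuclei. Asns, which encodes asparagine synthetase, had 1 UMI in plantaris and 2 in gastrocnemius. At this depth no difference in Trib3 or Asns was detectable in myonuclei.

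Ddit4 (chr10:59949669-59951834, minus strand), also called REDD1, encodes an inhibitor of mTORC1 that is induced by stress, hypoxia and glucocorticoids. It had 230 UMIs or 14.5 CPM (12.7 to 16.5) in plantaris Myh4 nuclei and 41 UMIs or 2.90 CPM (2.08 to 3.93) in gastrocnemius Myh4 nuclei. The difference was 5.01-fold, a log2 ratio of 2.33 (1.84 to 2.84). Thinned to 1000 UMIs per nucleus in 1 random draw, the log2 ratio was 1.42. In a separate draw the transcript was in 61 of 4138 plantaris nuclei (1.47%, 1.13 to 1.89) and 12 of 4442 gastrocnemius nuclei (0.270%, 0.140 to 0.471). Thinned values of Ddit4 thus rest on few UMIs. Ddit4l (chr3:137621612-137628333, plus strand), also called REDD2, is its paralog and is known for high expression in muscle. It had 1963 UMIs or 124 CPM (119 to 130) in plantaris and 363 UMIs or 25.7 CPM (23.1 to 28.5) in gastrocnemius, a log2 ratio of 2.27 (2.11 to 2.44). Of all genes with enough UMIs, 99.1% had a lower ratio than Ddit4l and 99.2% a lower one than Ddit4. Since the members were chosen on this contrast, nothing is read from these ranks.

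The Ddit4l difference was seen in how many nuclei held a UMI and in how many held 3 or more. At such low counts both follow the mean level, so they do not tell more transcribing nuclei from more RNA per nucleus. Ddit4l was found in 1201 of 4184 plantaris Myh4 nuclei (28.7%) and 312 of 4575 gastrocnemius Myh4 nuclei (6.82%). Nuclei with 3 or more Ddit4l UMIs numbered 188 in plantaris and 7 in gastrocnemius, and the highest count in a nucleus was 9 in plantaris and 5 in gastrocnemius. After thinning to 1000 UMIs, 10.3% (9.36 to 11.2) of plantaris nuclei and 2.39% (1.96 to 2.88) of gastrocnemius nuclei held the transcript. No small set of nuclei carried the level, as the top 1% of nuclei held 11.2% of the Ddit4l UMIs in plantaris and 26.7% in gastrocnemius.

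Gadd45g (chr13:51846678-51848468, plus strand), which encodes a stress sensor upstream of p38 and JNK signalling, was the member with the most UMIs. It had 2109 UMIs or 133 CPM (128 to 139) in plantaris Myh4 nuclei and 635 UMIs or 44.9 CPM (41.5 to 48.5) in gastrocnemius Myh4 nuclei, a log2 ratio of 1.57 (1.44 to 1.70). It was found in 34.2% of plantaris and 12.0% of gastrocnemius Myh4 nuclei, and after thinning to 1000 UMIs in 12.1% of plantaris and 4.64% of gastrocnemius Myh4 nuclei. Its relative Gadd45a, known for its induction in denervated and aged muscle, was sparse at 57 UMIs or 3.60 CPM (2.73 to 4.67) in plantaris and 27 UMIs or 1.91 CPM (1.26 to 2.78) in gastrocnemius. Its log2 ratio of 0.92 (0.23 to 1.63) was just under 1. The gene E230016M11Rik overlaps Gadd45a on the opposite strand, and whether counting used the strand is not given in the sources used here. The third family member, Gadd45b, which is not on the list, had 3.35 CPM in plantaris and 5.59 CPM in gastrocnemius, a log2 ratio of -0.74 (-1.27 to -0.22).

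**Figure D1:**
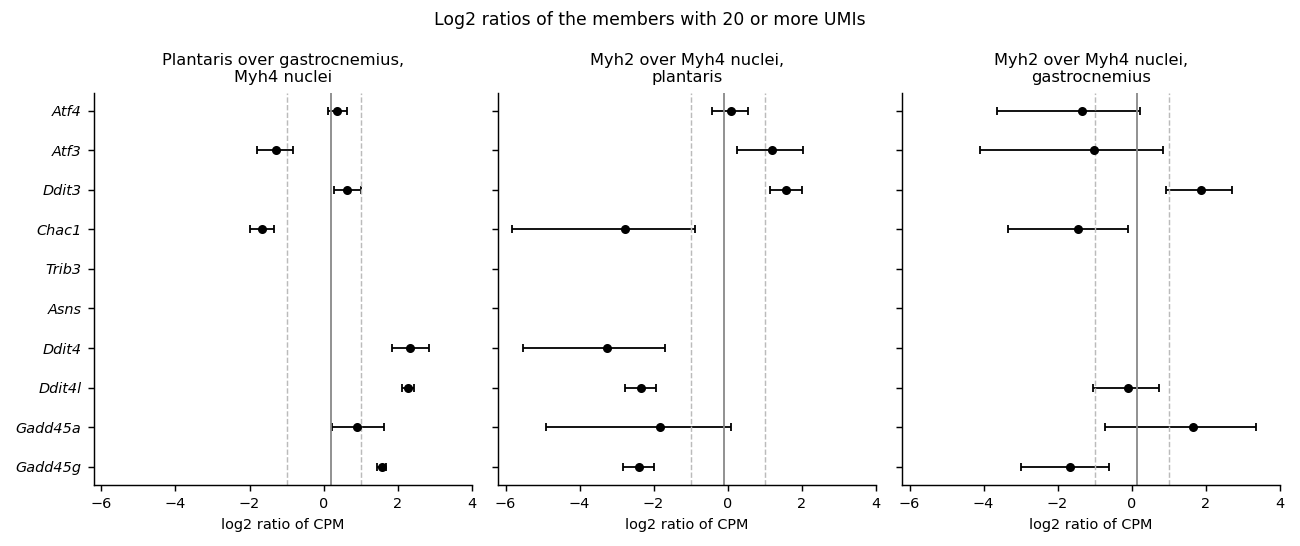
Log2 ratio of CPM (horizontal axis) for each member with 20 or more UMIs over the groups compared, in 3 comparisons, with bars for the 95% counting interval. The grey line is the median over all genes and dashed lines mark -1 and 1; Ddit4, Ddit4l and Gadd45g lie right of 1 in plantaris over gastrocnemius, Chac1 and Atf3 left of -1, and Ddit3 lies right of 1 in Myh2 over Myh4 nuclei of both muscles.

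In the other myosin types, Myh2 and Myh1, the differences between the muscles were smaller for Ddit4l and rested on fewer UMIs for every member. In Myh2 nuclei Ddit4l had 48 UMIs or 24.5 CPM (18.1 to 32.5) in plantaris and 12 UMIs or 24.1 CPM (12.4 to 42.1) in gastrocnemius, a log2 ratio of 0.03 (-0.91 to 1.07). In Myh1 nuclei it had 83 UMIs or 28.6 CPM in plantaris and 7 UMIs or 18.1 CPM in gastrocnemius, a log2 ratio of 0.66 (-0.45 to 2.02). The upper ends of both intervals, 1.07 and 2.02, lie below the 2.27 of Myh4 nuclei, a difference between types that was not tested. Gadd45g had 50 UMIs or 25.5 CPM in plantaris and 7 UMIs or 14.0 CPM in gastrocnemius Myh2 nuclei, and 96 UMIs or 33.1 CPM in plantaris and 3 UMIs or 7.77 CPM in gastrocnemius Myh1 nuclei. Its log2 ratios of 0.86 (-0.29 to 2.25) and 2.09 (0.50 to 4.39) in Myh2 and Myh1 nuclei include that of Myh4 nuclei. Thinned to 1000 UMIs in 1 random draw, however, the Myh1 ratio of Gadd45g was 0.15. In a separate draw Gadd45g was in 26 of 747 plantaris Myh1 nuclei (3.48%, 2.29 to 5.06). It was in 0 of 124 gastrocnemius Myh1 nuclei (interval up to 2.93%) of that draw, so the thinned values rest on few UMIs.

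Other members had few UMIs in the small gastrocnemius groups of Myh2 and Myh1 nuclei. Ddit4 had 3 UMIs in plantaris and 0 in gastrocnemius Myh2 nuclei, and 9 UMIs in plantaris and 0 in gastrocnemius Myh1 nuclei, too few for a ratio. Chac1 had 2 UMIs in plantaris and 4 in gastrocnemius Myh2 nuclei, and 12 in plantaris and 4 in gastrocnemius Myh1 nuclei. Ddit3 hardly differed between the muscles in these types, at log2 ratios of 0.35 (-0.53 to 1.33) in Myh2 and -0.003 (-0.96 to 1.12) in Myh1 nuclei. In all, 4 members had enough UMIs in Myh2 nuclei, of which Atf4 was apart on the higher side with 41 UMIs in plantaris and 3 in gastrocnemius, beside 8.78% of all genes, and none on the lower, beside 4.86%. In Myh1 nuclei 5 members had enough UMIs, and Gadd45g and Atf3 were apart on the higher side, beside 13% of all genes, and none on the lower, beside 4.23%. For Atf3, 42 of the 67 plantaris UMIs lay in 1 nucleus, and its log2 ratio was 1.16 in all Myh1 nuclei and -0.60 in those with 10 or more Myh UMIs. Over all myonuclei Ddit4, Ddit4l and Gadd45g were apart on the higher side, beside 9.12% of genes, and Chac1 on the lower, beside 2.4%.

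**Figure D2:**
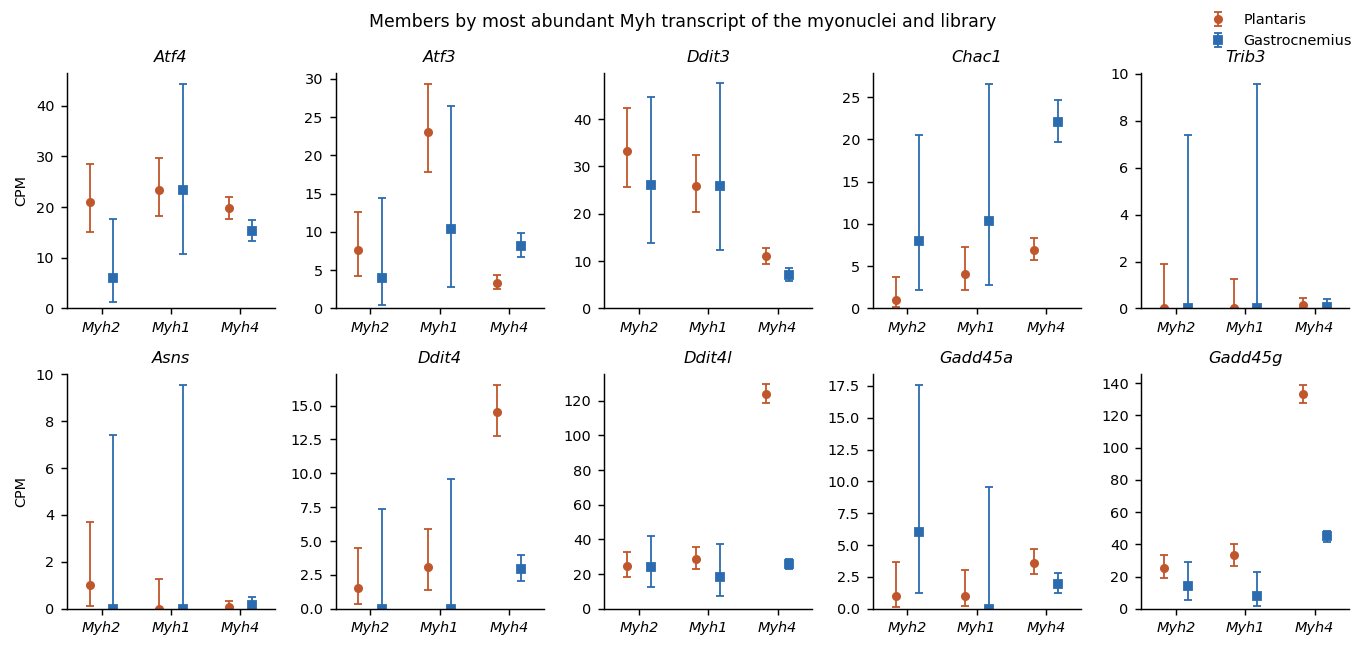
CPM of each member (vertical axis, its own scale per panel) in Myh2, Myh1 and Myh4 nuclei of plantaris (circles) and gastrocnemius (squares), with 95% Poisson bars. In plantaris Ddit4, Ddit4l and Gadd45g are highest in Myh4 nuclei, at 14.5, 124 and 133 CPM, while Ddit3 is lowest there in both muscles.

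The nuclei of the muscles lay largely in different clusters, so the levels were also read within each cluster. Myh4 nuclei of plantaris lay mostly in clusters 2, 4 and 1, and those of gastrocnemius in clusters 0, 5 and 1, where clusters are groups of nuclei with similar expression. Ddit4l was higher in plantaris in each of these 5 clusters. In cluster 0 it had 183 CPM (141 to 235) in 127 plantaris nuclei and 23.2 CPM (19.8 to 27.0) in 2460 gastrocnemius nuclei, and in cluster 5 it had 195 CPM (125 to 290) in 37 plantaris nuclei and 30.02 CPM (25.2 to 35.4) in 1380 gastrocnemius nuclei. In cluster 2 it had 114 CPM (105 to 124) in plantaris and 25.6 CPM (8.32 to 59.8) in 77 gastrocnemius nuclei. In cluster 1 it had 58.6 CPM (52.1 to 65.7) in plantaris and 26.1 CPM (19.4 to 34.5) in gastrocnemius. Plantaris levels differed between clusters, with the interval of cluster 0 above that of cluster 2 and that of cluster 1 below both. In cluster 6, which holds most Myh2 nuclei, the intervals overlapped, at 24.9 CPM (20.1 to 30.6) in plantaris and 21.5 CPM (12.7 to 33.9) in gastrocnemius.

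Gadd45g followed the same order within clusters, at 133 CPM in plantaris and 48.5 CPM in gastrocnemius nuclei of cluster 0, 171 and 43.9 CPM in cluster 5, 143 and 46.1 CPM in cluster 2 and 148 and 36.5 CPM in cluster 4, plantaris first. Chac1 was lower in plantaris nuclei of cluster 1, at 5.42 CPM (3.57 to 7.88) in plantaris and 13.1 CPM (8.46 to 19.3) in gastrocnemius, and of cluster 2, at 7.22 CPM (5.16 to 9.83) in plantaris and 46.1 CPM (21.1 to 87.6) in gastrocnemius. In cluster 0 its interval in plantaris, 4.80 to 34.5 CPM on 5 UMIs, held the gastrocnemius level of 22.4 CPM. The genes of these nuclei were used to make the clusters, so these values describe them and are no test.

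**Figure D3:**
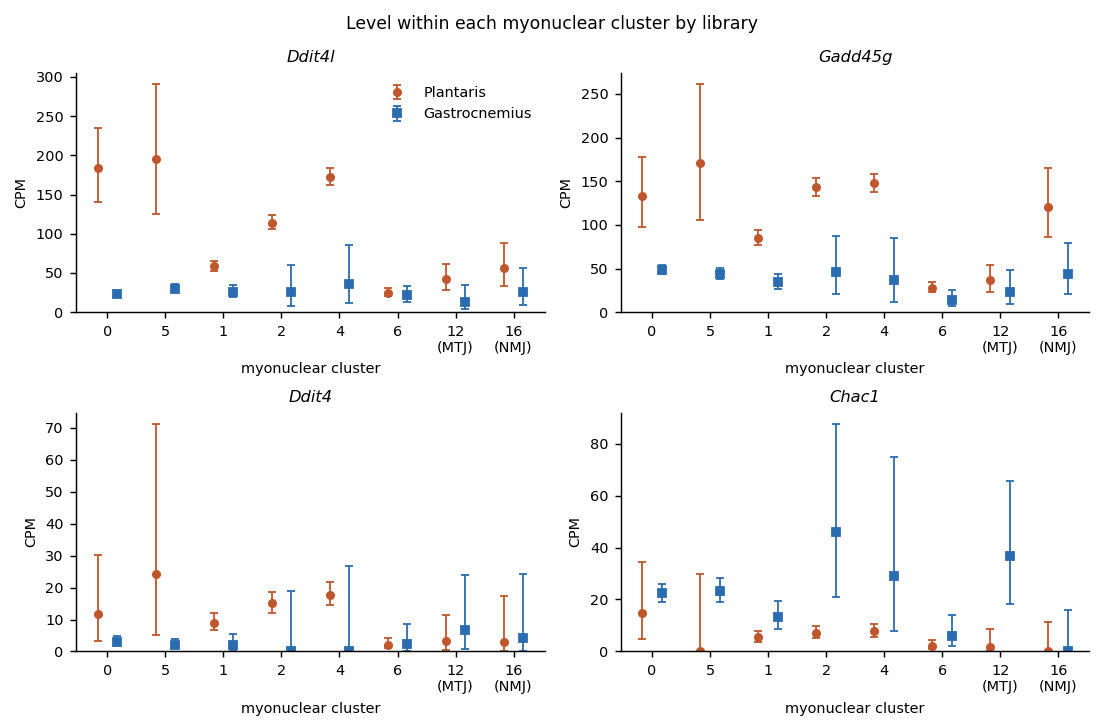
CPM (vertical axis) of Ddit4l, Gadd45g, Ddit4 and Chac1 in 8 myonuclear clusters (horizontal axis), plantaris as circles and gastrocnemius as squares, with 95% Poisson bars; MTJ and NMJ mark the clusters of myotendinous and neuromuscular junction nuclei. Ddit4l and Gadd45g sit higher in plantaris in clusters 0, 5, 1, 2 and 4, and Ddit4l does not in cluster 6.

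Between fibre types, Ddit3 was the member higher in Myh2 than in Myh4 nuclei of both muscles. It had 65 UMIs or 33.2 CPM (25.6 to 42.3) in Myh2 and 11.1 CPM (9.48 to 12.8) in Myh4 nuclei of plantaris, a log2 ratio of 1.59 (1.15 to 2.01). In gastrocnemius it had 13 UMIs or 26.1 CPM (13.9 to 44.6) in Myh2 and 7.07 CPM (5.75 to 8.60) in Myh4 nuclei, a log2 ratio of 1.88 (0.92 to 2.72). Myh1 nuclei stood with Myh2 nuclei, at 25.8 CPM in plantaris and 25.9 CPM in gastrocnemius. The order of Ddit3 was thus Myh2 and Myh1, whose intervals overlapped, above Myh4, in each library.

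Members of the mTORC1 and Gadd45 groups ran the other way in plantaris. Ddit4l had 24.5 CPM in Myh2 and 124 CPM in Myh4 nuclei of plantaris, a log2 ratio of -2.34 (-2.78 to -1.93), but 24.1 CPM in Myh2 and 25.7 CPM in Myh4 nuclei of gastrocnemius, a log2 ratio of -0.09 (-1.06 to 0.73). Apart from Myh4 nuclei of plantaris, every type and muscle lay between 18.1 and 28.6 CPM. Ddit4 had 3 UMIs or 1.53 CPM (0.316 to 4.48) in Myh2 and 14.5 CPM in Myh4 nuclei of plantaris, a log2 ratio of -3.25 (-5.53 to -1.68). With nuclei thinned to 1000 UMIs the ratio was -1.13 in 1 random draw. In a separate draw Ddit4 was in 1 of 543 Myh2 nuclei (0.184%) and 61 of 4138 Myh4 nuclei (1.47%). In gastrocnemius it had no UMI in Myh2 or Myh1 nuclei, and its 2.90 CPM in Myh4 nuclei lies below what 3 counts in those groups would give. Gadd45g was lower in Myh2 nuclei of both muscles, at 25.5 CPM in Myh2 and 133 CPM in Myh4 nuclei of plantaris (log2 ratio -2.38, -2.82 to -1.98), and 14.0 CPM in Myh2 and 44.9 CPM in Myh4 nuclei of gastrocnemius (log2 ratio -1.68, -3.00 to -0.63). Thinned to 1000 UMIs in 1 random draw, the gastrocnemius ratio was -0.845, no longer apart. In a separate draw Gadd45g was in 2 of 158 Myh2 nuclei (1.27%, 0.154 to 4.50) and 206 of 4442 Myh4 nuclei (4.64%, 4.04 to 5.30) of gastrocnemius.

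Chac1 was also lower in Myh2 nuclei, with 2 UMIs or 1.02 CPM in Myh2 and 6.95 CPM in Myh4 nuclei of plantaris, and 4 UMIs or 8.03 CPM in Myh2 and 22.1 CPM in Myh4 nuclei of gastrocnemius. Atf4 had 20.9 CPM (15.03 to 28.4) in Myh2, 23.4 CPM (18.2 to 29.7) in Myh1 and 19.7 CPM (17.6 to 22.0) in Myh4 nuclei of plantaris, all overlapping. In gastrocnemius its 3 UMIs in Myh2 nuclei gave 6.02 CPM (1.24 to 17.6), beside 15.3 CPM in Myh4 nuclei. Of the 8 members with enough UMIs in plantaris, 2 were higher in Myh2 than in Myh4 nuclei and 5 lower, beside 8.64% and 13% of all genes. In gastrocnemius 7 had enough, with 2 higher and 4 lower, beside 17.9% and 11.2% of all genes. For Myh1 over Myh4 nuclei the counts were 2 higher and 4 lower of 8 in plantaris, beside 5.66% and 8.94%, and 1 higher and 2 lower of 6 in gastrocnemius, beside 13.5% and 10.9%. Gastrocnemius counts rest on 2 to 13 UMIs in its 174 Myh2 nuclei.

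Atf3 differed from the other members in how it was spread over nuclei. Of 346 Atf3 UMIs in 10912 myonuclei, 270 (78.0%) lay in 11 nuclei with 3 or more, of which 4 were from plantaris with 80 of 142 UMIs (56.3%) and 7 from gastrocnemius with 190 of 204 UMIs (93.1%). The 11 leading nuclei of each other member with 50 or more myonuclear UMIs held 2.004% of the UMIs for Gadd45g to 13.7% for Gadd45a. Over 5624 genes with 100 to 1000 myonuclear UMIs the median share of the 11 leading nuclei was 7.35%, and 3 genes, Atf3 among them, reached 78.0% or more. With the 11 nuclei's Atf3 UMIs left out, the level was 2.91 CPM in plantaris and 0.908 CPM in gastrocnemius, against 6.66 and 13.2 CPM with them, plantaris first in each pair.

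In the summed counts of the nuclei with 3 or more Atf3 UMIs, some genes were far above their level in other myonuclei, and nuclei with more Atf3 carried most of these sums. Xirp2, which encodes an actin-binding protein found at sites of muscle damage, had 145 UMIs or 8192 CPM (6913 to 9639) in the 4 plantaris nuclei, beside 905 CPM in plantaris myonuclei without Atf3. In the 7 gastrocnemius nuclei it had 672 UMIs or 27284 CPM (25260 to 29427), beside 1098 CPM in gastrocnemius myonuclei without Atf3. The 4 nuclei with 3 Atf3 UMIs each held 2, 5, 5 and 20 Xirp2 UMIs, and the other 7 held 25 to 200. Flnc, which encodes filamin C and marks the same sites, had 3390 CPM with 3 or more Atf3 UMIs and 232 CPM without Atf3 in plantaris, and 7674 CPM with and 130 CPM without in gastrocnemius. Ankrd1, a stretch-responsive gene, had 678 CPM with and 1.19 CPM without in plantaris, and 1096 CPM with and 1.499 CPM without in gastrocnemius, and its UMIs lay in 1 of the 4 plantaris nuclei and in 4 of the 7 gastrocnemius nuclei. These genes were named after their values were seen, as the genes with the highest ratios, together with Lmcd1, Enah, Myh9, Ankrd2, Klhl41, Rnf115 and Hectd2os.

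The other 9 members had few UMIs in these 11 nuclei. They summed to 0 in 9 nuclei, 1 in the nucleus with 98 Atf3 UMIs and 3 in a nucleus with 3 Atf3 UMIs. The early genes Jun and Egr1 had 0 UMIs in them and Fos had 1. For Jun this allows up to 208 CPM in plantaris and 150 CPM in gastrocnemius. In myonuclei without Atf3 it had 18.6 CPM in plantaris and 15.6 CPM in gastrocnemius, so its 0 UMIs show no lower level. The 1 Fos UMI, in gastrocnemius, gave 40.6 CPM (1.03 to 226), beside 0.977 CPM in gastrocnemius myonuclei without Atf3. Of the 5 nuclei with 27 or more Atf3 UMIs, Myh UMIs numbered 0, 0, 3, 6 and 12, against a mean of 14.4 per plantaris and 14.2 per gastrocnemius myonucleus, so the Myh type of such nuclei rests on few UMIs. With 17700 UMIs in all in the plantaris nuclei and 24630 in the gastrocnemius nuclei, 0 UMIs of Gadd45g allow up to 208 CPM and 150 CPM by the upper interval end. Both ends lie above its 108 CPM in plantaris and 42.6 CPM in gastrocnemius myonuclei without Atf3. The few UMIs of the other members in these nuclei thus do not tell a lower level from that of other myonuclei. The share of such nuclei, 4 of 5804 in plantaris and 7 of 5108 in gastrocnemius, is too small to set a difference between the muscles.

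**Figure D4:**
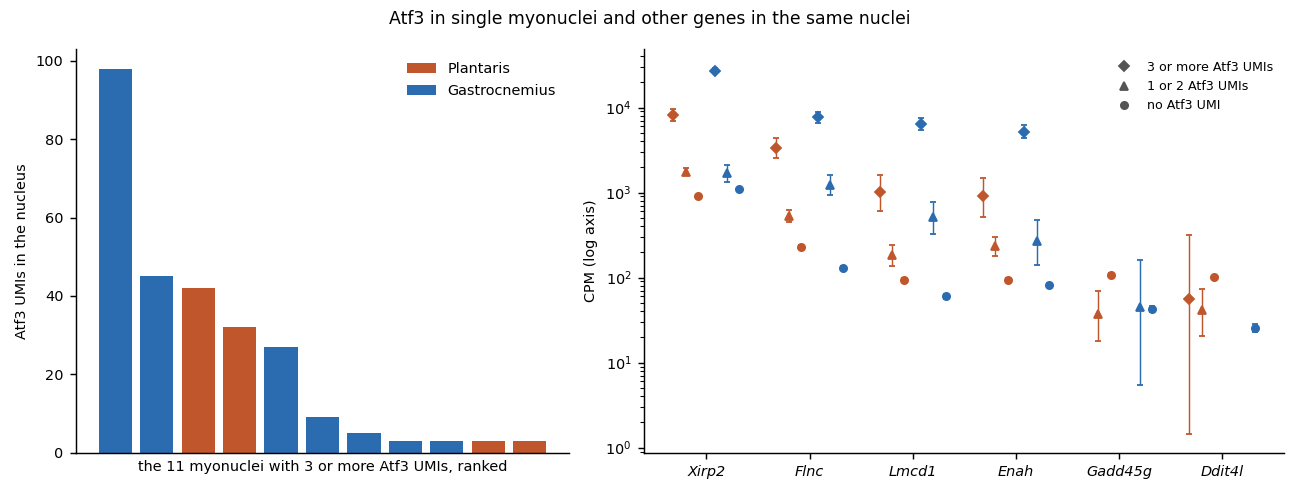
Left, Atf3 UMIs in each of the 11 myonuclei with 3 or more, ranked and coloured by library, where the highest holds 98. Right, CPM on a log axis with 95% Poisson bars of 4 genes that led these nuclei and of 2 members, plantaris left of gastrocnemius, in nuclei with 3 or more, 1 or 2, or no Atf3 UMI; groups with 0 UMIs are not drawn.

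Beside non-muscle nuclei, Chac1, Ddit4l and Gadd45g were apart on the higher side in plantaris myonuclei and Chac1, Atf3 and Gadd45g in gastrocnemius myonuclei, 3 of 8 members in each, beside 11.2% of genes in plantaris and 10.9% in gastrocnemius. For Atf3 in gastrocnemius, 190 of 204 myonuclear UMIs lay in 7 nuclei, and with those left out the level was 0.908 CPM in myonuclei and 1.93 CPM (0.628 to 4.51) in non-muscle nuclei, which turns the direction. None was apart on the lower side in plantaris, beside 34.2% of genes. Chac1 had 5.87 CPM in myonuclei and 2.30 CPM in non-muscle nuclei of plantaris, and 20.9 CPM in myonuclei and 4.25 CPM in non-muscle nuclei of gastrocnemius, a log2 ratio of 2.30 (1.44 to 3.32). Ddit4 was apart on the lower side in gastrocnemius, at 2.66 CPM (1.91 to 3.61) in myonuclei and 12.0 CPM (8.14 to 17.01) in non-muscle nuclei, beside 34.3% of genes. In plantaris it had 11.6 CPM in myonuclei and 14.9 CPM in non-muscle nuclei, so the muscles differed in myonuclei while their non-muscle levels had overlapping intervals. Its highest class level was 31.0 CPM (15.5 to 55.5) in plantaris tenocytes.

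Trib3 and Asns were counted more in non-muscle nuclei than in myonuclei. Trib3 had 2 UMIs in 5804 myonuclei and 11 in 2564 non-muscle nuclei of plantaris, a log2 ratio of -4.49 (-7.70 to -2.29), and 1 in myonuclei and 6 in non-muscle nuclei of gastrocnemius, a log2 ratio of -5.16 (-10.7 to -2.12). Mesenchymal progenitors, the fibroblast-like cells of muscle, held 9 of these Trib3 UMIs in plantaris and 4 in gastrocnemius. Asns had 3 UMIs in myonuclei and 6 in non-muscle nuclei of plantaris, and 2 in myonuclei and 3 in non-muscle nuclei of gastrocnemius. Both fall short of 20 UMIs, so neither is called apart.

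Levels of Ddit4l and Gadd45g in non-muscle nuclei are set beside those of abundant fibre transcripts in the same nuclei. Ddit4l had 99.7 CPM in myonuclei and 30.1 CPM in non-muscle nuclei of plantaris, a log2 ratio of 1.73 (1.49 to 1.97), and 25.4 CPM in myonuclei and 13.5 CPM in non-muscle nuclei of gastrocnemius, a log2 ratio of 0.91 (0.41 to 1.45). Gadd45g had log2 ratios of 1.52 in plantaris and 1.29 in gastrocnemius. Fibre transcripts, which these cells should lack, had log2 ratios of 1.69 (Ttn), 1.37 (Myh4), 0.83 (Ckm) and 1.24 (Pvalb) in plantaris and 2.12, 1.64, 1.06 and 1.58 for the same genes in gastrocnemius. Gadd45g lay within the range of these transcripts in both muscles, while Ddit4l lay just above it in plantaris and below all 4 in gastrocnemius. The part of free RNA in the non-muscle levels was not tested, and the fibre transcripts are given for the pooled non-muscle nuclei only. Levels by class are given plantaris first, with the UMIs of gastrocnemius. Ddit4l had 55.4 and 11.8 CPM (2 UMIs) in macrophages, 47.7 and 12.5 CPM (3 UMIs) in pericytes, and 41.5 and 14.3 CPM (3 UMIs) in muscle stem cells. In mesenchymal progenitors it had 21.0 and 13.6 CPM (24 UMIs), and in tenocytes 39.5 and 23.4 CPM (2 UMIs). Between the muscles Ddit4l was apart in macrophages, at a log2 ratio of 2.23 (0.23 to 5.36), beside 10.4% of genes higher. It was also apart in pericytes, at 1.94 (0.15 to 4.35), beside 7.37%. In muscle stem cells it was apart at 1.54 (-0.18 to 3.91), beside 9.35%. In mesenchymal progenitors Ddit4l was not apart, at 0.62 (-0.07 to 1.36). Gadd45g had 57.6 and 29.45 CPM (5 UMIs) in macrophages, 61.7 and 20.7 CPM (5 UMIs) in pericytes, and 27.7 and 28.6 CPM (6 UMIs) in muscle stem cells. In mesenchymal progenitors it had 32.7 and 15.9 CPM (28 UMIs), and in tenocytes 53.55 and 0 CPM (0 UMIs). Gadd45g was apart in pericytes, at 1.57 (0.14 to 3.33), beside 7.37% of genes higher. In mesenchymal progenitors it was apart at 1.04 (0.43 to 1.70), beside 5.61%. It was not apart in macrophages, at 0.97 (-0.44 to 2.71), or in muscle stem cells, at -0.05 (-1.48 to 1.59). Within myonuclei, summed mesenchymal markers had 35.6 CPM in plantaris and 45.2 CPM in gastrocnemius Myh4 nuclei, with all 7 markers seen in both.

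**Figure D5:**
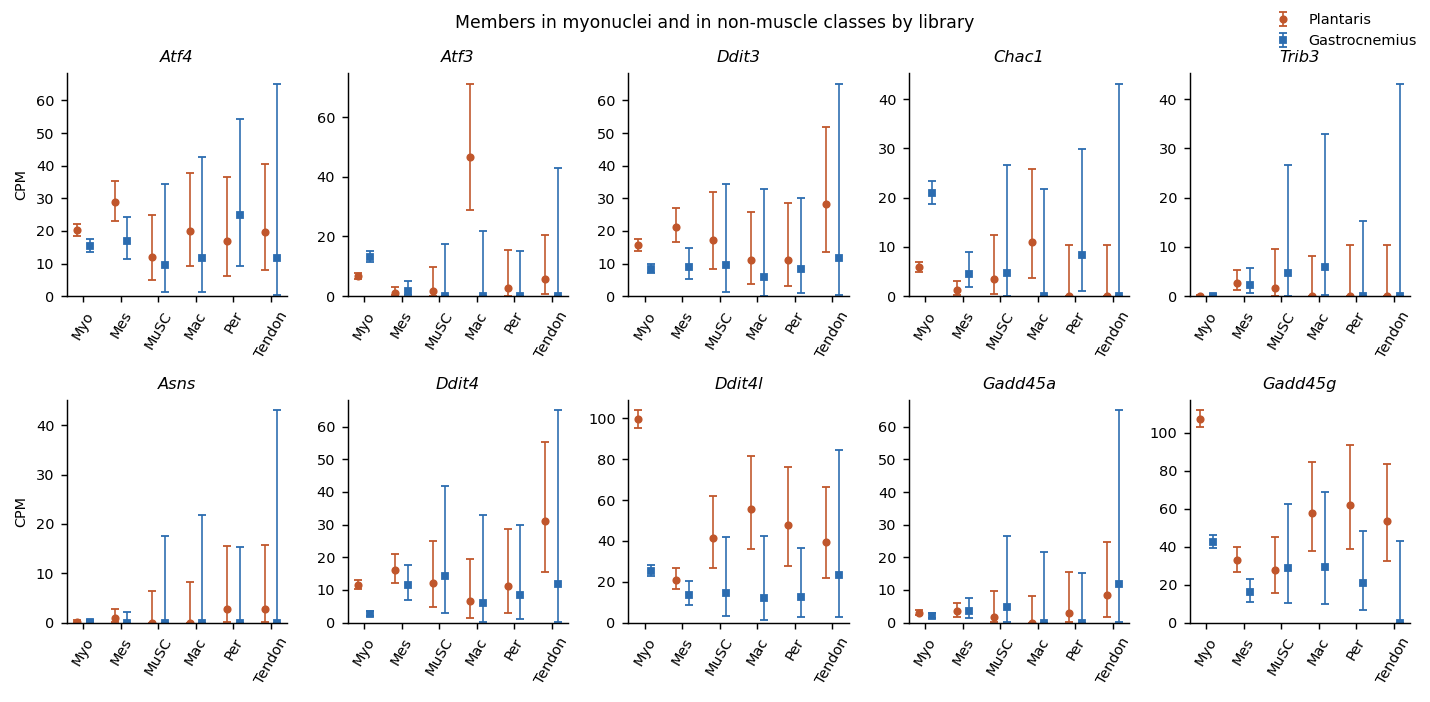
CPM of each member (vertical axis, its own scale per panel) in myonuclei (Myo), mesenchymal progenitors (Mes), muscle stem cells (MuSC), macrophages (Mac), pericytes (Per) and tenocytes (Tendon) of plantaris (circles) and gastrocnemius (squares), with 95% Poisson bars. Chac1 is highest in gastrocnemius myonuclei at 20.9 CPM, and the high Atf3 value of plantaris macrophages rests on 21 UMIs.

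Members were also compared for being found in the same Myh4 nuclei. Nuclei thinned to 1000 UMIs were split by whether they held a member, and the level of each other member was compared between nuclei with and without it. In plantaris 2 of 19 pairs with 20 or more UMIs had a log2 ratio of 1 or more. They were Chac1 in nuclei with Atf4, on 1 UMI with and 25 without, and Chac1 in nuclei with Ddit4, on 2 UMIs with and 24 without, beside 14.3% of genes for nuclei with Atf4 and 16.6% for nuclei with Ddit4. For plantaris nuclei with Ddit4l and with Gadd45g the shares of genes were 2.64% and 1.91%. In gastrocnemius none of 13 pairs did, beside 19.1% of genes for nuclei with Atf4, 10.6% with Chac1, 10.8% with Ddit4l and 5.81% with Gadd45g. Ddit4l and Gadd45g, the pair with the most UMIs, gave Gadd45g 137 CPM in plantaris nuclei with Ddit4l and 133 CPM in those without, a log2 ratio of 0.04 (-0.37 to 0.44). In gastrocnemius Gadd45g had 66.1 CPM with Ddit4l and 47.3 CPM without, a log2 ratio of 0.48 (-0.85 to 1.55). With 2000 UMIs per nucleus some plantaris intervals left out 0, and pairs are named here for that reason. Gadd45g in nuclei with Ddit4l had 0.27 (0.05 to 0.49), and Ddit4l had 0.33 (0.11 to 0.55) with Gadd45g and 0.47 (0.005 to 0.89) with Atf4. Atf4 in nuclei with Ddit4l had 0.66 (0.08 to 1.21), but -0.70 (-2.37 to 0.59) at 1000 UMIs. In gastrocnemius at 2000 UMIs these 4 ratios were -0.67 (-1.81 to 0.27), -0.62 (-1.77 to 0.35), -0.43 (-2.32 to 0.96) and -0.37 (-2.27 to 1.03), in the same order.

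Other genes of the pathway, from lists chosen for it, are given by their counts in Myh4 nuclei. In Myh4 nuclei, plantaris over gastrocnemius, none of the 4 kinases of eIF2 and none of the 11 genes of eIF2, its exchange factor and its phosphatase was apart, with medians of 0.13 and 0.29 beside 0.20 for all genes. Of 21 other ATF4 targets with enough UMIs 3 were higher and none lower, with a median of 0.52, where 8.86% of all genes were higher and 2.17% lower. These were Cth, of the transsulfuration pathway, at 17.7 CPM in plantaris and 7.57 CPM in gastrocnemius, Shmt2, a mitochondrial enzyme of one-carbon metabolism, at 7.01 and 3.32 CPM, and the cationic amino acid transporter Slc7a1, at 6.89 and 3.32 CPM, plantaris first. Among 7 partners and other bZIP factors, with a median of 0.94, 2 were higher, Fosl2 with 525 UMIs or 33.2 CPM in plantaris and 113 UMIs or 7.99 CPM in gastrocnemius (log2 ratio 2.05, 1.76 to 2.36) and Atf5 at 2.65 CPM in plantaris and 0.919 CPM in gastrocnemius.

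Remaining lists gave the surroundings of single members, and their counts stand beside the same 8.86% of all genes higher and 2.17% lower. For Chac1, 1 of 8 glutathione genes was apart, the peroxidase Gpx4, at 18.1 CPM in plantaris and 4.17 CPM in gastrocnemius, and none was lower. For Ddit4 and Ddit4l, none of 13 other mTORC1 regulators was apart, with a median of -0.02. For Ddit4, which glucocorticoids induce, 1 of 7 other glucocorticoid targets was apart, and the list median was 0.02. The one apart was Fkbp5, lower with 324 CPM in plantaris and 728 CPM in gastrocnemius, a log2 ratio of -1.17 (-1.22 to -1.12). Klf15, Per1, Tsc22d3 and Sgk1 had log2 ratios of 0.93, 0.45, 0.26 and 0.02, and Klf9 and Zbtb16 had -0.31 and -0.87. The part of glucocorticoids was not tested. For Gadd45a, 1 of 8 genes of the denervation response was higher, the receptor subunit Chrna1, on 18 UMIs in plantaris and 7 in gastrocnemius. Partners of the GADD45 family had 1 of 7 higher, Gadd45gip1, on 27 UMIs in plantaris and 10 in gastrocnemius. Both Tribbles relatives of Trib3 lay within 1. Of 11 genes of the other arms of the unfolded protein response 2 were higher, Pdia4 and Calr, chaperones of the endoplasmic reticulum, at 3.73 and 6.44 CPM in plantaris and 1.49 and 2.76 CPM in gastrocnemius.

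Early genes, which handling of tissue can induce, are given beside these differences. Of 9 with enough UMIs in Myh4 nuclei 3 were higher in plantaris and none lower, Btg2 at 3.29 CPM in plantaris and 1.20 CPM in gastrocnemius, Hspa1a on 28 UMIs in plantaris and 1 in gastrocnemius, and Hspa1b on 27 UMIs in plantaris and 2 in gastrocnemius, beside 8.86% of all genes higher. Their summed level over 12 genes was 400 CPM in plantaris and 340 CPM in gastrocnemius Myh4 nuclei, 511 CPM in plantaris and 287 CPM in gastrocnemius Myh1 nuclei, and 270 CPM in plantaris and 112 CPM in gastrocnemius Myh2 nuclei. Most of the sums in Myh4 nuclei came from 1 gene, Nr4a1, at 348 CPM in plantaris and 297 CPM in gastrocnemius. Fosb was at 0 in Myh4 nuclei of both muscles and Egr1 in those of plantaris. The part of handling in the members' differences was not tested.

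Between fibre types, several further genes were apart the same way in both muscles, of which 4 from the lists beside Ddit3, Chac1 and Ddit4 are given. The cystine transporter Slc7a11, which supplies glutathione synthesis and is an ATF4 target, was higher in Myh2 nuclei, at 123 CPM in Myh2 and 21.3 CPM in Myh4 nuclei of plantaris and 98.3 CPM in Myh2 and 20.5 CPM in Myh4 nuclei of gastrocnemius. Its log2 ratios were 2.53 (2.29 to 2.77) in plantaris and 2.26 (1.79 to 2.70) in gastrocnemius, the same side as Ddit3 and the opposite one to Chac1. It was higher still in non-muscle nuclei, with 35.1 CPM in myonuclei and 222 CPM in non-muscle nuclei of plantaris, and 25.7 CPM in myonuclei and 294 CPM in non-muscle nuclei of gastrocnemius, and the part of free RNA in its myonuclear levels was not tested. Over the list of ATF4 targets, 1 of 19 was higher and 4 were lower in Myh2 nuclei of plantaris, with a median of -0.17, and 2 of 17 higher and 1 lower in gastrocnemius, with a median of -0.16. Of all genes 8.64% were higher and 13% lower in plantaris, and 17.9% higher and 11.2% lower in gastrocnemius. The mTORC1 inhibitor Deptor was lower in Myh2 nuclei like Ddit4, at 52.6 CPM in Myh2 and 152 CPM in Myh4 nuclei of plantaris and 32.1 CPM in Myh2 and 200 CPM in Myh4 nuclei of gastrocnemius. Of 13 mTORC1 regulators, 1 was higher and 2 lower in plantaris, and 1 higher and 4 lower in gastrocnemius, with medians of 0.10 and -0.03. Among the glucocorticoid targets, Sgk1 and Fkbp5 were lower in Myh2 nuclei of both muscles. Fkbp5 had 76.6 CPM in Myh2 and 324 CPM in Myh4 nuclei of plantaris, and 199 CPM in Myh2 and 728 CPM in Myh4 nuclei of gastrocnemius. The other targets of that list are not given for this comparison, so nothing is read about the list as a whole.

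For each member with 200 or more UMIs, genes with the most similar pattern were sought by Pearson's r of log2(CPM + 1) over 16 groups, the 3 myosin types and 5 non-muscle classes in both libraries. These points share libraries, depth and free RNA. Ddit4l was most like Lrrc3b (0.86), Mss51 (0.85) and Bsg (0.84). Mss51 had 312 CPM in plantaris and 39.7 CPM in gastrocnemius Myh4 nuclei, and 30.6 CPM in plantaris and 26.1 CPM in gastrocnemius Myh2 nuclei. In Myh1 nuclei Mss51 had 59.6 CPM in plantaris and 5.18 CPM in gastrocnemius, where Ddit4l had 28.6 CPM in plantaris and 18.1 CPM in gastrocnemius. Gadd45g was most like Psma7 (0.91), Slc37a4 (0.90) and Eef1akmt1 (0.90), Ddit4 most like Fam160b1 (0.95), Anapc5 (0.94) and Chchd6 (0.91), and Ddit3 most like Nfat5 (0.90), Mpped2 (0.89) and Atxn2 (0.88). Chac1 was most like Gm4861 (0.80), Zfp770 (0.77) and Psma6 (0.77), and Atf4 most like Zfp942 (0.76), Kptn (0.76) and Ncln (0.74). For Atf3 the values were 0.84 (Gm47781), 0.84 (Drc3) and 0.79 (2310040G24Rik), resting on the few nuclei above. Between Ddit4l and Gadd45g r was 0.50, and between Chac1 and Ddit4 it was -0.44.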

How the data were processed

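Nuclei of plantaris and gastrocnemius were stained with propidium iodide and sorted, and libraries were made with kit version 3.1 of 10x Chromium for 3′ ends, as the labels' protocols state. The authors deposited whole-number UMI counts per gene and barcode, with a table that names the library of each barcode. Cell Ranger 6.0.1 and build mm10 are named per the submitters' processing notes; which annotation was counted, and whether strand and introns were used, is not given in the sources used here. Ddit3 and Gadd45a overlap genes on the other strand.

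Nuclei with at least 200 genes and under 5% mitochondrial UMIs were kept, 9150 in plantaris and 7374 in gastrocnemius. The doublet caller marked 0.0109% and 0.0271% of them, under the 0.5% at which such a caller counts as working, so doublets remain. Nuclei were clustered in scanpy 1.11.5 (counts scaled to 10000, 2000 variable genes, 30 components, 15 neighbours, Leiden resolution 1, seed 0; leidenalg 0.10.2, numpy 2.4.6, scipy 1.17.1) and clusters named by markers. UMIs were summed per group and library, with exact Poisson intervals for CPM, exact conditional binomial intervals for log2 ratios and Clopper-Pearson intervals for shares. A group at 0 was set to 3 counts, with no ratio where that floor lies above the other group. Both libraries have 1 sample per muscle, so no test was made.

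The members, the 12 lists of 123 further genes and the comparisons were chosen with earlier results of these data known. All members are named; further genes are named where they were apart, at most 4 per list and comparison. The procedure was tested on simulated data: for Myh4 nuclei, plantaris over gastrocnemius, 99.5% of 4-fold changes were recovered and 1.19% of unchanged genes were called apart (12649 genes). In Myh1 nuclei 98.9% were recovered and 8.41% of unchanged genes called apart (7824 genes), and in Myh2 nuclei 98.8% and 4.91% (7204 genes). The simulated group sums had Poisson counting error only, without clumping of UMIs in single nuclei or spread between libraries. These shares therefore do not tell how often calls on the real counts are wrong. Positions are of mm10.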

Additional observations from a re-analysis of the deposited data

Results flagged for a closer look

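For Atf3 the sign of a difference was not the same in the groups compared, and none of these contrasts was tested. In Myh2 over Myh4 nuclei the log2 ratio of Atf3 was 1.19 in plantaris, on 15 and 53 UMIs, and -1.03 in gastrocnemius, on 2 and 116 UMIs. In plantaris over gastrocnemius it was 1.16 in Myh1 nuclei, on 67 and 4 UMIs, and -1.29 in Myh4 nuclei, on 53 and 116 UMIs. Single nuclei with 42 UMIs in plantaris Myh1 nuclei and 98 UMIs in gastrocnemius Myh4 nuclei hold much of these sums.

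For Gadd45a the log2 ratio of Myh2 over Myh4 nuclei was -1.82 in plantaris, on 2 UMIs in Myh2 nuclei, and 1.66 in gastrocnemius, on 3 UMIs in Myh2 nuclei. The difference between the muscles was not tested, and both intervals (-4.90 to 0.10 in plantaris and -0.71 to 3.36 in gastrocnemius) include 0.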

How the results depend on the processing

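Of 174 values for counts of members apart, 150 stayed within 1.5 times the value reported and 24 moved. Of 160 counts of further genes, 136 stayed and 24 moved. Of 572 values for single members, 538 stayed within the counting interval, 29 moved and 5 changed sign. A change of sign was counted only for ratios that were apart. Ratios not apart also changed sign with thinning, such as Chac1 in Myh1 over Myh4 nuclei of plantaris, from -0.75 to 0.25. Ddit3 in Myh2 nuclei, plantaris over gastrocnemius, went from 0.35 to -0.10. The 5 that were counted were of Atf3. In Myh2 over Myh4 nuclei of gastrocnemius its log2 ratio was 0.51 as a mean of nucleus CPM and 1.23 with nuclei thinned to 1000 UMIs. In plantaris over gastrocnemius it was -0.60 in Myh1 nuclei and 2.60 in Myh4 nuclei with 10 or more Myh UMIs, and 0.060 in Myh4 nuclei without the leading nucleus of each group, an alternative chosen after seeing the data.

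For plantaris over gastrocnemius, the members apart on the higher side in Myh4 nuclei were 5 of 8 with 10 or more Myh UMIs, beside 9.25% of genes, and on the lower side 1 with 10 or more Myh UMIs (2.23% of genes), without the leading nucleus (2.16%), as a mean of nucleus CPM (2.44%) and with thinning (1.88%). Over all myonuclei 2 were lower with gastrocnemius reweighted to the Myh mix of plantaris (2.45% of genes), without junction clusters (2.55%) and with median-ratio scaling (3.47%). In Myh1 nuclei 1 was higher with 10 or more Myh UMIs (12.9%) and with thinning (12.4%), and in Myh2 nuclei 0 with 50 or more UMIs (5.39%) or thinning (9.09%) and 2 as a mean of nucleus CPM (10.3%).

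For Myh2 over Myh4 nuclei 1 was higher in plantaris as a mean of nucleus CPM (9.34%) and with thinning (8.69%). In gastrocnemius 1 was higher with 10 or more Myh UMIs (18.9%), with 50 or more UMIs (14.5%) and with 3 or more UMIs expected in the smaller group (12.6%, added after seeing the data), and 1 lower with thinning (11.4%). For Myh1 over Myh4 nuclei of gastrocnemius 0 were higher with 3 or more UMIs expected (8.23%) and 3 with thinning (15.5%), and 1 was lower as a mean of nucleus CPM (13.5%) and with thinning (11.5%). Pairs of members found together numbered 4 in plantaris with 2000 UMIs per nucleus, 1 each for nuclei with Atf4 (6.22% of genes), Chac1 (13.9%), Ddit3 (11.6%) and Ddit4 (8.41%). The cause of these moves was not tested, except that thinning and higher minimums leave fewer UMIs.

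Median-ratio scaling removes the all-gene median of 0.20 between the Myh4 nuclei and gave log2 ratios of 2.07 for Ddit4l and 1.37 for Gadd45g. Thinning gave 1.42 for Ddit4 in 1 random draw. Thinned ratios between groups come from that draw, and thinned shares of nuclei from separate ones. No paired analysis was possible because each muscle has 1 library and the labels do not say that the muscles came from the same mice.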

Other observations

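Nuclei at the neuromuscular and myotendinous junctions, which transcribe specialised genes of the synapse and the tendon contact, were taken from their own clusters and overlap the myosin types: 138 plantaris and 166 gastrocnemius Myh4 nuclei and 46 plantaris Myh1 nuclei lie in junction clusters. At the neuromuscular junction Gadd45g had 39 UMIs or 121 CPM (86.0 to 165) in plantaris and 10 UMIs or 43.3 CPM (20.8 to 79.7) in gastrocnemius, near the levels of Myh4 nuclei in each muscle. Ddit4l had 55.8 CPM (33.1 to 88.2) in plantaris and 26.0 CPM (9.54 to 56.6) in gastrocnemius there, and Chac1 had no UMI in 83 plantaris or 100 gastrocnemius nuclei. At the myotendinous junction Chac1 had 1 UMI or 1.58 CPM (0.040 to 8.79) in plantaris and 11 UMIs or 36.6 CPM (18.3 to 65.5) in gastrocnemius.

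Atf3 had 21 UMIs or 46.5 CPM (28.8 to 71.1) in 266 plantaris macrophages and 0 UMIs in 141 gastrocnemius macrophages, with an interval up to 21.7 CPM. The 21 UMIs lay in 10 nuclei. In mesenchymal progenitors Ddit3 had 21.3 CPM in plantaris and 9.10 CPM in gastrocnemius, a log2 ratio of 1.23 (0.43 to 2.11).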
